A study of Mus musculus with 12 samples.

Results

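The transcriptome described here is that of C2C12 myotubes after 7 days of differentiation, measured by total RNA sequencing in 3 libraries. C2C12 is a mouse myoblast line, grown from muscle satellite cells, whose cells leave the cell cycle and fuse into multinucleate fibres when they are made to differentiate. These 3 libraries are the samples labelled as myotubes among the 12 samples of the series, and they were chosen by label alone. The other 9 samples, which are undifferentiated myoblasts and embryonic stem cells, were not used, so every level below is a level in myotubes and none is a change on differentiation. The 3 libraries share 1 cell line and 1 treatment. The differentiation medium is not given in the sources used here, and nothing in the labels says whether the libraries came from separate cultures. The spread between them may therefore be technical.

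In skeletal muscle, force comes from thick filaments of myosin sliding along thin filaments of actin inside repeating units called sarcomeres. Calcium released from the sarcoplasmic reticulum starts each contraction by binding troponin on the thin filament, and it is pumped back afterwards. Many of these proteins come in isoforms made from separate genes, such as embryonic, slow and fast myosin heavy chains or the fetal and adult subunits of the acetylcholine receptor, and muscle fibres exchange one for another as they mature.

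The deposited values were counts per gene, which totalled 27273254, 31119511 and 18335785 in replicates 1, 2 and 3. Below, 3 values in a row are replicates 1, 2 and 3 in that order. Levels are in TPM, that is counts divided by gene length and scaled to the same sum in each library. Over all genes this scale was dominated by short non-coding genes: Gm23935, a predicted gene of 57 bases, stood at 41892, 85880 and 365313. Nuclear protein-coding genes together held 56.6%, 58.5% and 34.7% of the all-gene TPM, but 81.0%, 85.1% and 80.9% of the counts. Levels are therefore given as mRNA TPM, in which the nuclear protein-coding genes alone make up the sum, unless the all-gene scale is named. This scale was chosen after the data were seen. A count of 3 in a gene of 1 kilobase corresponds to 0.562, 0.476 and 0.877 mRNA TPM, which is near the limit of counting at this depth, and correspondingly less in a longer gene. The gene length used is the one deposited with the counts, 1 per gene, and it can exceed the main transcript (4133 bases for the glycolytic gene Gapdh), which understates the level of such genes.

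Replicate 1 stood apart from replicates 2 and 3. Over 11675 protein-coding genes at 1 mRNA TPM or more in all libraries, 938 (8.03%) were at least 2-fold above the mean of the other replicates in replicate 1 and 812 (6.96%) at least 2-fold below it. Genes of the contractile apparatus lay low in it, and genes of mitosis and matrix lay high. For example, the summed level of the thick filament list was 11307, 24536 and 26709, and that of the mitosis list was 1478, 470 and 368. Each library's value is therefore given throughout, so that results can be read with and without replicate 1. Without it, the mean summed level was 25622 for the thick filament list and 419 for mitosis. The part played by its mix of cells was not tested. In bulk RNA, fewer myotubes and less of a transcript per myotube cannot be told apart.

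The myotube label was checked against its markers. Myog, the transcription factor that commits myoblasts to differentiation, stood at 766, 2162 and 2109 mRNA TPM. Ttn, the giant titin ruler of the sarcomere, stood at 218, 413 and 574, and Acta1, the skeletal muscle actin, at 3217, 8917 and 6064. All 3 markers were lowest in replicate 1, and each was among the abundant transcripts of every library. The fusion proteins myomaker (Mymk: 257, 794 and 785) and myomixer (Mymx: 228, 218 and 174) were also present, the latter not lowest in replicate 1.

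**Figure D1:**
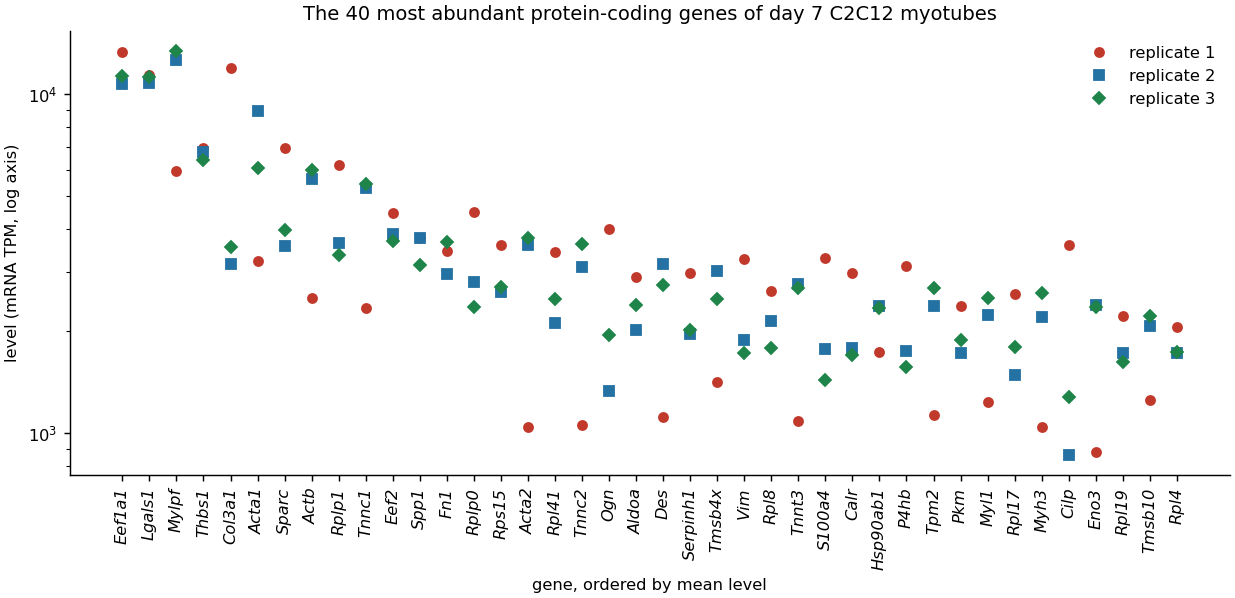
Levels of the 40 most abundant protein-coding genes in each library, in mRNA TPM on a log axis, ordered by mean level with 1 point per replicate. Replicate 1 lies below the others for contractile genes such as Mylpf (5953 against 12638 and 13387) and above them for matrix genes such as Col3a1 (11956 against 3152 and 3550).

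Of 21420 nuclear protein-coding genes in the table, 11675 (54.5%) reached 1 mRNA TPM in all libraries, 8817 reached 10, 1609 reached 100 and 67 reached 1000. No count was recorded in any library for 5662 of them. Transcripts were spread over many genes. The 10 most abundant protein-coding genes of each library made up 7.57%, 7.21% and 7.19% of its mRNA TPM, and 642, 741 and 742 genes were needed to reach 50% of it.

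The most abundant protein-coding transcript by mean was Eef1a1, the elongation factor that brings aminoacyl-tRNA to the ribosome, at 13332, 10739 and 11366 mRNA TPM. Lgals1, which encodes the secreted lectin galectin-1, followed at 11412, 10837 and 11234, and these values were close in all libraries. Mylpf, the fast regulatory light chain of myosin, came next at 5953, 12638 and 13387, so it led in replicates 2 and 3 and lay over 2-fold lower in replicate 1. The adhesive matrix protein gene Thbs1 stood at 6957, 6750 and 6389. Of the 50 most abundant, 12 encode cytosolic ribosomal proteins. Others were the matrix genes Col3a1, Sparc, Fn1 and Ogn, the intermediate filament genes Des, Vim and Nes, and Spp1, which encodes osteopontin (3770, 3763 and 3146).

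Among RefSeq long non-coding RNAs, Malat1, a nuclear RNA of speckles, was highest on the mRNA TPM scale at 23217, 21040 and 26684, above every protein-coding gene. H19, the imprinted RNA abundant in embryonic and regenerating muscle, stood at 5494, 11345 and 13889, lowest in replicate 1. Bc1, of 168 bases, was next by mean at 6232, 1627 and 2119, above H19 in replicate 1. The predicted gene Gm15564 followed it at 38.8, 120 and 2325. Lower down by mean, Xist was at 244, 203 and 334 and Neat1 at 119, 96.8 and 171. Meg3, Rian and Mirg, transcribed from the imprinted Dlk1-Dio3 region, were at or near 0, with no count for Meg3 and Mirg. Igf2, the imprinted partner of H19, was low, with 6, 19 and 9 counts.

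Small and ribosomal RNA genes held much of the all-gene TPM, and several of them differed widely between libraries. Rn7sk, the 7SK RNA that restrains transcription elongation, stood at 117518, 91329 and 51242 all-gene TPM. CT010467.1, which overlaps ribosomal RNA sequence, had 1955296, 834224 and 126498 counts, while Gm42418, another such gene, had 103760, 266177 and 739877. Mir6236 and the protein-coding gene Lars2, mitochondrial leucyl-tRNA synthetase, went in the same order as Gm42418. Lars2 had 3666, 13651 and 164245 counts, or 61.9, 195 and 4332 mRNA TPM. The ribosomal depletion step of the library kit acts on such sequences, and its part in these differences was not tested.

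The thick filament list was led by embryonic and fast isoforms. Of its 20 genes, 19 reached 1 mRNA TPM in all libraries and 9 reached 100. Mylpf led, followed by Myl1, the essential light chain of fast fibres, at 1232, 2233 and 2502. Mybph, a myosin-binding protein related to myosin-binding protein C, was next to Myh3 in level at 687, 2181 and 2616. Myom2, the M-band protein, stood at 196, 516 and 511. All 20 members were lowest in replicate 1, and 16 of the 19 lay at least 2-fold below the mean of the other replicates there, against 6.96% of all protein-coding genes.

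Within the sarcomeric myosin heavy chains, Myh3, the embryonic isoform, led with 45.1%, 46.2% and 50.5% of the family's summed level. Its level was 1043, 2209 and 2584 mRNA TPM. Myh1, the fast isoform of type IIx fibres, held 31.4%, 38.9% and 34.1% at 727, 1861 and 1745. Myh4, the fastest isoform of type IIb fibres, held 19.9%, 10.3% and 10.4%, and its level (461, 491 and 535) was the least affected by replicate 1 among these leaders. The order Myh3, Myh1, Myh4 was the same in every library, and their shares did not overlap.

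The remaining heavy chains were minor. Myh2, of type IIa fibres, stood at 19.9, 92.6 and 98.7, and Myh8, the perinatal isoform, at 9.63, 64.2 and 80.4. Myh7, the slow and cardiac isoform, stood at 44.2, 50.9 and 50.7, so that it exceeded Myh2 in replicate 1 and lay below it in the others. Myh6, the atrial isoform, was at 5.13, 5.93 and 7.39, and Myh13 and Myh15, of eye and specialised muscles, were under 1. These genes share long stretches of near-identical sequence, and reads that match several of them could have been split or left out by the counting, so small shares are uncertain.

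The start regions of the 3 leading heavy chain genes are shown because they are the ones in the family with an exact TATAAA near the start. This is a form of the TATA box, the core promoter motif at which TATA-binding protein sits. The motif was searched as TATAAA in the direction of transcription, 15 to 45 bases before the annotated start. It was found in 3 of the 10 heavy chain promoters, in 2.57% of all 27025 RefSeq promoters (GRCm38.p6) and in 4.94% of those of genes at 1000 mRNA TPM or more. Myh3, Myh1 and Myh4 lie in a cluster on the plus strand of chromosome 11. The windows run from 140 bases before to 10 bases into the transcript, at chr11:67078160-67078309, chr11:67199962-67200111 and chr11:67237672-67237821, with TATAAA in capitals.
Myh3: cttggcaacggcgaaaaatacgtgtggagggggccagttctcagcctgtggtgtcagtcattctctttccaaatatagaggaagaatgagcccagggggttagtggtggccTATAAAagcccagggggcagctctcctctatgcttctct
Myh1: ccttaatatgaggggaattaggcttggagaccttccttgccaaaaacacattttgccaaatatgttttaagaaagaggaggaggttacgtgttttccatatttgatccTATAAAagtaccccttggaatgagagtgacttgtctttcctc
Myh4: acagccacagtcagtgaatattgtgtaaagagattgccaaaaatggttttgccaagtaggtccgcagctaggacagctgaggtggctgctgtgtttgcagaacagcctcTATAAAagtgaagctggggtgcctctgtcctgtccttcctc
The motif begins 29, 32 and 31 bases before the start of Myh3, Myh1 and Myh4. It was not found at that distance from the annotated starts of Myh2 and Myh8 in the same cluster, nor of Myh7, which says only that these letters are not in that window. Variants of the motif were not searched, and an annotated start of Myh7 has TATATA shortly before it. The TATAAA match is a description of sequence and no test of what sets the levels.

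The light chains had 1 dominant member. Mylpf held 77.1%, 78.1% and 77.0% of the sarcomeric light chain total, with a mean share of 77.4% ± 0.579 (SD, n = 3). With counts not divided by length, its mean share was 55.3%. Myl1 held 16.0%, 13.8% and 14.4%. Myl4, the embryonic and atrial essential light chain, held 6.95%, 7.80% and 8.19% at 537, 1264 and 1423 mRNA TPM. Myl2, the slow and ventricular regulatory chain, stood at 2.02, 57 and 67.6, a difference between libraries that exceeds that of the other light chains. Myl3 had 1, 7 and 1 counts, and Myl7 had none.

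Thin filament genes formed the largest contractile list by summed level, at 12739, 30614 and 29585 mRNA TPM. Acta1 led the actins with 41.4%, 44.0% and 33.4% of the family. Actb, the cytoplasmic beta actin, was close behind it in replicate 3 (33.4% against 32.9%) and further away in the others. Acta2, the smooth muscle actin that is also made in developing skeletal muscle, held 13.4%, 17.7% and 20.8%, and Actc1, the cardiac actin, 8.81%, 6.76% and 9.07%. Acta2 stood at 1043, 3585 and 3776, above Actc1 at 685, 1371 and 1649 in each library. The coding parts of the actin genes are nearly identical, so these shares depend on how reads were assigned. They also depend on the deposited lengths: with counts not divided by length, Actb led by mean share (40.3% against 29.7% for Acta1).

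Troponins mixed slow and fast isoforms. Tnnc1, the calcium-binding subunit of slow and cardiac muscle, held 68.8%, 63.1% and 60.1% of troponin C, and the fast form Tnnc2 held the rest. Tnni2, the fast inhibitory subunit, held 54.6%, 47.6% and 51.5% of troponin I against 45.3%, 52.4% and 48.4% for the slow form Tnni1, so neither led in all libraries. Tnni3, the cardiac form, stayed between 0.726 and 3.26 mRNA TPM. In troponin T, the fast form Tnnt3 led with 66.6%, 65.3% and 62.8%, ahead of the slow form Tnnt1 (19.9%, 21.5% and 21.1%) and the cardiac and embryonic form Tnnt2 (13.5%, 13.2% and 16.1%). On this length-divided scale the fast share thus differed by subunit, from 62.8% or more in troponin T to 39.9% or less in troponin C. These shares depend on the deposited lengths. With counts not divided by length, Tnnt2 led troponin T by mean share (42.6% against 39.7% for Tnnt3). Likewise, Tnni1 then led troponin I (69.5% against 30.5% for Tnni2).

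Tropomyosin was led by Tpm2, the beta form, at 41.2%, 55.7% and 56.6%, with Tpm1 at 28.0%, 24.4% and 24.4%. With counts not divided by length, Tpm1 led by mean share (39.2% against 35.4% for Tpm2). Neb, the thin filament ruler nebulin, stood at 264, 423 and 651, in the same order over libraries as Ttn. Lmod2 (77.7, 272 and 384) and Lmod3 (116, 267 and 314), leiomodins that nucleate actin filaments, were both well above Tmod4 (3.27, 1.76 and 3.58), a cap of filament ends in mature muscle. Of 17 thin filament members at 1 mRNA TPM in all libraries, 14 lay at least 2-fold lower in replicate 1. The share over all protein-coding genes was 6.96%. The thin filament exceptions were Tpm1, Tpm3 and Tmod4.

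**Figure D2:**
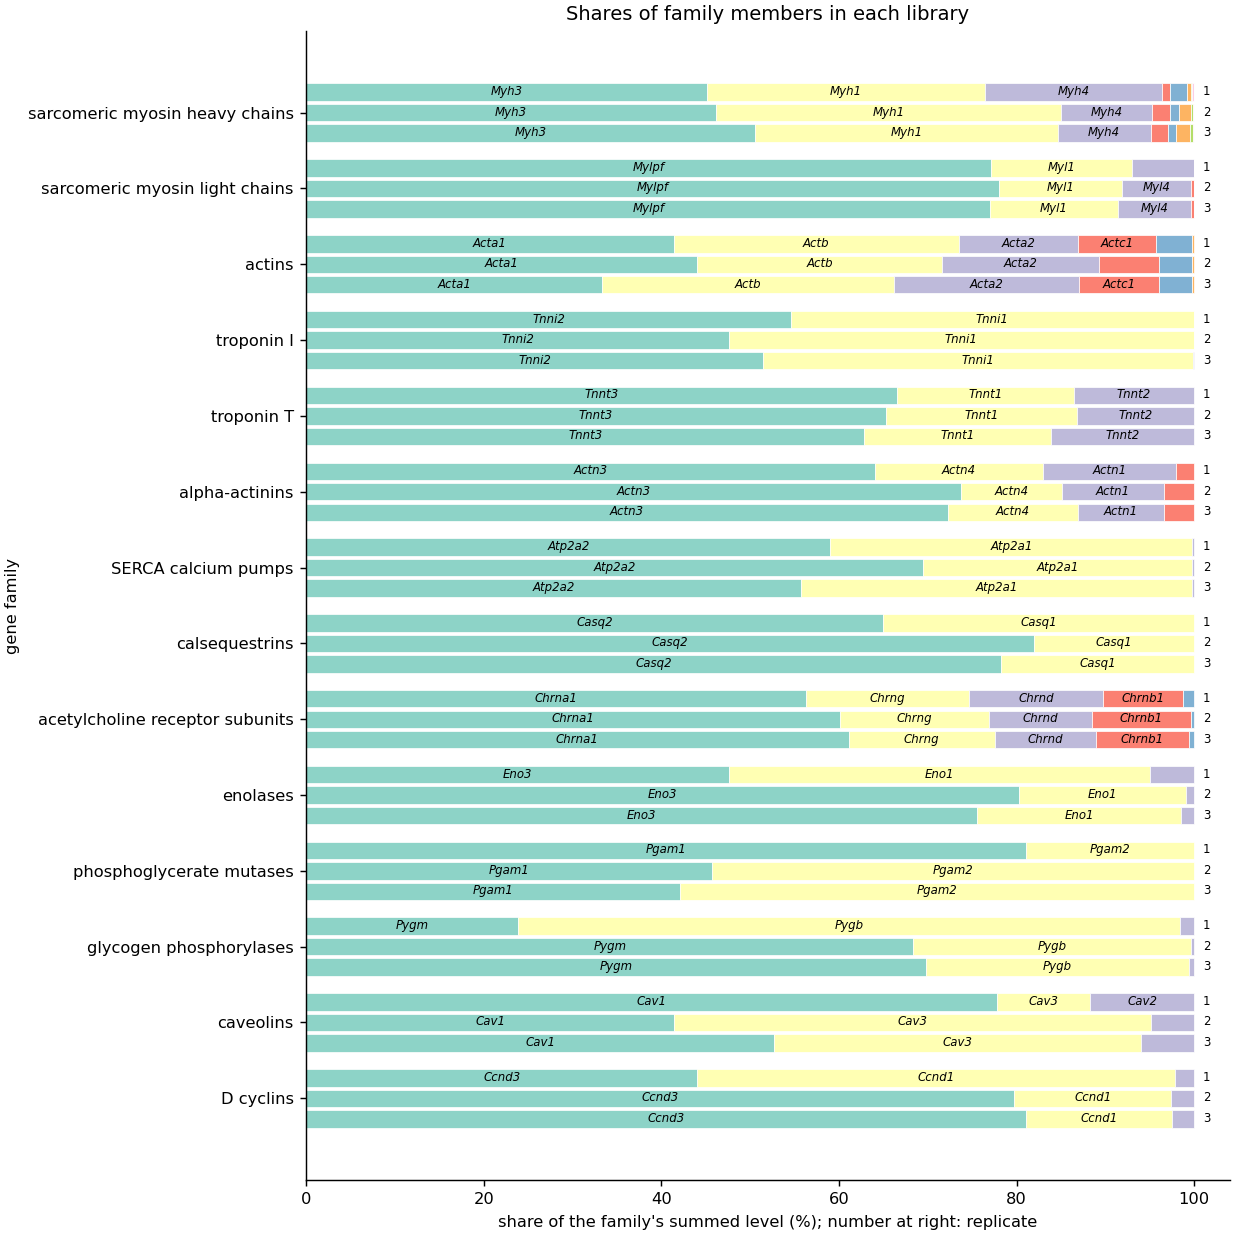
Share of each member in its family's summed level, for 14 families, with 1 bar per replicate and members labelled where they hold 7% or more. Sarcomeric light chains and acetylcholine receptor subunits keep nearly the same split in every library (Mylpf 77.1%, 78.1% and 77.0%), other contractile families differ more (Myh4 19.9% against 10.3% and 10.4%), and the glycogen phosphorylases, caveolins and D cyclins differ in replicate 1 (Pygm 23.9% against 68.4% and 69.8%).

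At the Z-disc, where thin filaments are anchored, Des, the muscle intermediate filament desmin, led at 1116, 3152 and 2745 mRNA TPM. Actn3, the alpha-actinin of fast fibres, held 64.0%, 73.8% and 72.3% of its family at 459, 1178 and 1246, while the other sarcomeric form Actn2 held 2.03%, 3.43% and 3.42%. Cryab, a small heat shock protein that guards desmin, followed at 425, 921 and 973, and Cavin4, a muscle coat protein of caveolae, at 396, 855 and 950. Flnc, the muscle filamin, stood at 157, 460 and 408 but remained below the general form Flna (632, 947 and 917). Titin cap, Tcap, was at 84.8, 140 and 172. Myoz2, the calsarcin of slow and cardiac muscle, stood at 59.5, 165 and 281, far above the fast-fibre form Myoz1 at 2.28, 5.04 and 7.42. Of the 24 members at 1 mRNA TPM in all libraries, 17 lay at least 2-fold lower in replicate 1, against 6.96% of all protein-coding genes.

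The dystrophin-glycoprotein complex ties the cytoskeleton to the basement membrane. All 13 of its listed genes were at 1 mRNA TPM or more in every library, led by Dag1, dystroglycan, at 141, 316 and 359. Utrn, the dystrophin relative of immature fibres, stood at 140, 166 and 183. Dmd, dystrophin itself, stood at 14.1, 20.6 and 27.2, below Utrn in each library. Among sarcoglycans, Sgcb and Sgca reached 152 to 236 and 56.4 to 185, and Sgcd 16.2 to 34.5. Here 4 of 13 members lay at least 2-fold lower in replicate 1, beside 6.96% of all protein-coding genes. By order alone, 8 of the 13 were lowest in replicate 1 and 5, Sgcd among them, were highest there.

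Excitation-contraction coupling genes were well represented, with 25 of 27 at 1 mRNA TPM in all libraries. Casq2, the calsequestrin of cardiac and slow muscle, stood at 699, 1490 and 1673 and exceeded the fast form Casq1 (376, 329 and 465) in each library. Bin1, which bends membrane into transverse tubules, stood at 516, 957 and 1002. Atp2a2, the calcium pump of slow and cardiac muscle, held 59.0%, 69.5% and 55.7% of the SERCA total against 40.8%, 30.3% and 44.0% for the fast form Atp2a1. Replicates 2 and 3 were 13.7 points apart in these SERCA shares, the widest gap between them in any family.

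The calcium release channel was mostly Ryr1, the skeletal form, with 79.0%, 79.7% and 79.4% of the family at 19.8, 66.2 and 75.4 mRNA TPM. Ryr3 held nearly all of the remainder, and Ryr2, the cardiac form, had no count in replicates 2 and 3. Cacna1s, the voltage sensor of skeletal muscle, stood at 33.4, 118 and 88.4, while the other L-type alpha 1 genes Cacna1c, Cacna1d and Cacna1f had at most 1 count in any library. Its auxiliary subunit Cacng1 stood at 148, 472 and 476, and Stac3, which links sensor and channel, at 22.2, 53.2 and 56.0. The pump inhibitors Sln and Pln were at or near 0, while myoregulin (Mrln), another one, stood at 1.91, 10.9 and 6.69. In this list 19 of 25 members lay at least 2-fold lower in replicate 1, against 6.96% of all protein-coding genes.

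The neuromuscular junction list was led by the acetylcholine receptor, the pentamer that receives the motor nerve's signal. Chrna1, the alpha subunit, of which each receptor holds a pair, stood at 469, 1256 and 1407 mRNA TPM and held 56.3%, 60.1% and 61.1% of the subunit total. The fetal gamma subunit Chrng stood at 153, 350 and 380. Its adult replacement, the epsilon subunit Chrne, stood at 10.1, 8.17 and 13.7. Gamma exceeded epsilon in each library, and the delta (Chrnd) and beta (Chrnb1) subunits lay between them.

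Of the proteins that gather receptors under the nerve, rapsyn (Rapsn) stood at 85.3, 241 and 210. The agrin receptor Lrp4 stood at 166, 190 and 174 and the kinase Musk at 98.4, 183 and 175. Dok7, the cytoplasmic activator of Musk, was lower at 11.2, 50.8 and 33.0. Ache, the acetylcholinesterase, was low at 1.38, 3.26 and 2.97, and Colq, its collagen-like anchor, stood at 2.91, 6.68 and 7.92. All 13 genes reached 1 mRNA TPM in every library. Of them, 9 lay at least 2-fold lower in replicate 1, against 6.96% of all protein-coding genes.

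The receptor promoters are shown because 4 subunits had an entry in the RefSeq promoter table and all 4 held an E-box, the motif that myogenic factors bind with E proteins. The E-box was searched as CAGCTG or CAGGTG on both strands (CACCTG is CAGGTG on the other strand), from 250 bases before to 50 bases after the start, and 35.9% of all promoters in the table held it. It was present in 12 of 18 thick filament, 10 of 14 thin filament and 15 of 23 glycolysis promoters, in 8 of 19 Z-disc and 9 of 23 fusion and regulator promoters, and in 3 of 10 myosin heavy chain, 1 of 8 dystrophin-glycoprotein complex and 5 of 40 cytosolic ribosomal protein promoters. It was also present in 9 of 15 excitation-contraction coupling promoters and in 5 of 9 of the neuromuscular junction list, which holds receptor subunits. By level, it was in 39.5% of promoters of genes at 1000 mRNA TPM or more and in 30.4% at 100 to 1000. The share thus varied among the muscle lists. Windows of 140 bases before to 10 bases after the start are printed on the strand of the gene, at chr2:73580329-73580478 (minus), chr1:87205671-87205820 (plus), chr11:69795928-69796077 (minus) and chr11:70619185-70619334 (minus) in GRCm38.p6, with E-boxes in capitals.
Chrna1: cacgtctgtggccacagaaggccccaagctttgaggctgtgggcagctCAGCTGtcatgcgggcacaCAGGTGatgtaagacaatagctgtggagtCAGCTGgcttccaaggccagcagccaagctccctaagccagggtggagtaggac
Chrng: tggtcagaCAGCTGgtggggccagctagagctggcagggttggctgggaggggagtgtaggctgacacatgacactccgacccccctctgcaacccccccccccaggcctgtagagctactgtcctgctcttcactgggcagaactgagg
Chrnb1: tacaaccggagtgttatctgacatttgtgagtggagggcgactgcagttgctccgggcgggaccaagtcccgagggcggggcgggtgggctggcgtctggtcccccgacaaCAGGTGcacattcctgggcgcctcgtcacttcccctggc
Chrne: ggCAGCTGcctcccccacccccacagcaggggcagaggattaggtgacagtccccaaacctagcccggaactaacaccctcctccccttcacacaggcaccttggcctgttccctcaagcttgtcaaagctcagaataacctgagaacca
Chrna1, the highest subunit, has 3 such motifs in the window, at 92, 73 and 44 bases before the start. Chrng, Chrnb1 and Chrne have 1 each, at 132, 29 and 138 bases. Chrng and Chrne, far apart in level, both hold 1 match.

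Among the myogenic factors, Myog held 92.4%, 91.0% and 90.5% of the family's summed level. Myod1, the determination factor, stood at 39.8, 182 and 186, Myf5, the other early factor, at 20.7, 27.3 and 30.2, and Myf6, the factor of mature fibres, at 2.37, 3.65 and 4.63. That order was the same in each library. Mef2c, a partner of these factors, led the MEF2 family with 42.7%, 49.0% and 51.1%, followed by Mef2a and Mef2d. The E proteins Tcf4, Tcf3 and Tcf12 shared theirs nearly evenly with no leader common to all libraries.

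Of the cell-cycle inhibitors, Cdkn1a (p21), which holds differentiating myoblasts out of the cycle, stood at 233, 830 and 884, and Rb1 at 50.5, 79.8 and 87.0. Cdh15, M-cadherin, stood at 143, 734 and 669. Itgb1 was high and even over libraries at 1535, 1615 and 1770, and Itga7, the laminin-binding alpha chain of muscle, led its family at 472, 922 and 747. Klhl41, a regulator of sarcomere assembly, stood at 318, 765 and 947. Mstn, the secreted inhibitor of muscle growth myostatin, had 5, 0 and 2 counts. Of 32 members at 1 mRNA TPM in all libraries, 17 lay at least 2-fold lower in replicate 1, against 6.96% of all protein-coding genes.

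Glycolytic genes had similar sums in the 3 libraries (15294, 12186 and 13717 mRNA TPM), but the split between muscle and general isoforms differed in several families. Aldoa, the aldolase of muscle, stood at 2881, 2014 and 2385 and held 97.8%, 99.5% and 99.5% of its family. Pkm, pyruvate kinase, stood at 2373, 1720 and 1881, and its liver and red cell relative Pklr had no count. Eno3, the muscle enolase, stood at 880, 2396 and 2354 against 876, 562 and 716 for the general form Eno1. The pair was level in replicate 1 and over 3-fold apart in the others.

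Some other muscle isoforms of glycolysis followed the same split by library as Eno3. Aldoa and the lactate dehydrogenase gene Ldha (1645, 966 and 1199) did not, being highest in replicate 1. Ldha held 98.3%, 97.7% and 97.4% of its family. Pgam2, muscle phosphoglycerate mutase, held 18.95%, 54.3% and 57.9% of its family, Pygm, muscle glycogen phosphorylase, 23.9%, 68.4% and 69.8%, and Pfkm, muscle phosphofructokinase, 51.6%, 78.0% and 76.9%. So Pgam1 and Pygb led in replicate 1, and Pgam2 and Pygm led in replicates 2 and 3. Ckm, the muscle creatine kinase, was modest at 68.7, 199 and 188 and near the brain form Ckb at 61.6, 167 and 107. Slc2a4, the insulin-responsive glucose transporter of adult muscle, stood at 0.916, 1.05 and 1.09, against 134, 58.2 and 67.6 for the general transporter Slc2a1.

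Nuclear genes of oxidative phosphorylation were even, with a summed level of 12256, 13184 and 12730 and all 38 above 10 mRNA TPM. In replicate 1, 1 of 38 lay at least 2-fold lower, beside 6.96% of all protein-coding genes. Atp5b, the catalytic subunit of ATP synthase, led at 1054, 1353 and 1237. The subunits with a heart and muscle form were mostly in their general form: Cox6a1 held 90.3%, 73.7% and 68.1% over the muscle form Cox6a2, and Cox8a held 90.9%, 84.5% and 80.1%. Cox7a1, the muscle form of subunit 7a, held 2.27%, 3.40% and 7.37%.

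The 13 protein-coding genes of the mitochondrial genome added 46902, 45950 and 60196 on the mRNA TPM scale, above the nuclear list. mt-Co1, a core subunit of cytochrome oxidase, led at 30348, 28762 and 35850, followed by mt-Cytb at 7010, 6750 and 9343. Their listed levels were very unequal: mt-Co3 stood at 51.4, 30.8 and 41.0, mt-Co2 at 32.9, 23.9 and 34.2 and mt-Atp6 at 11.0, 4.197 and 11.6. The nuclear genome of the mouse holds a near-identical copy of part of the mitochondrial genome, and how reads that match both were counted is not given in the sources used here. The level of these genes is therefore uncertain.

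**Figure D3:**
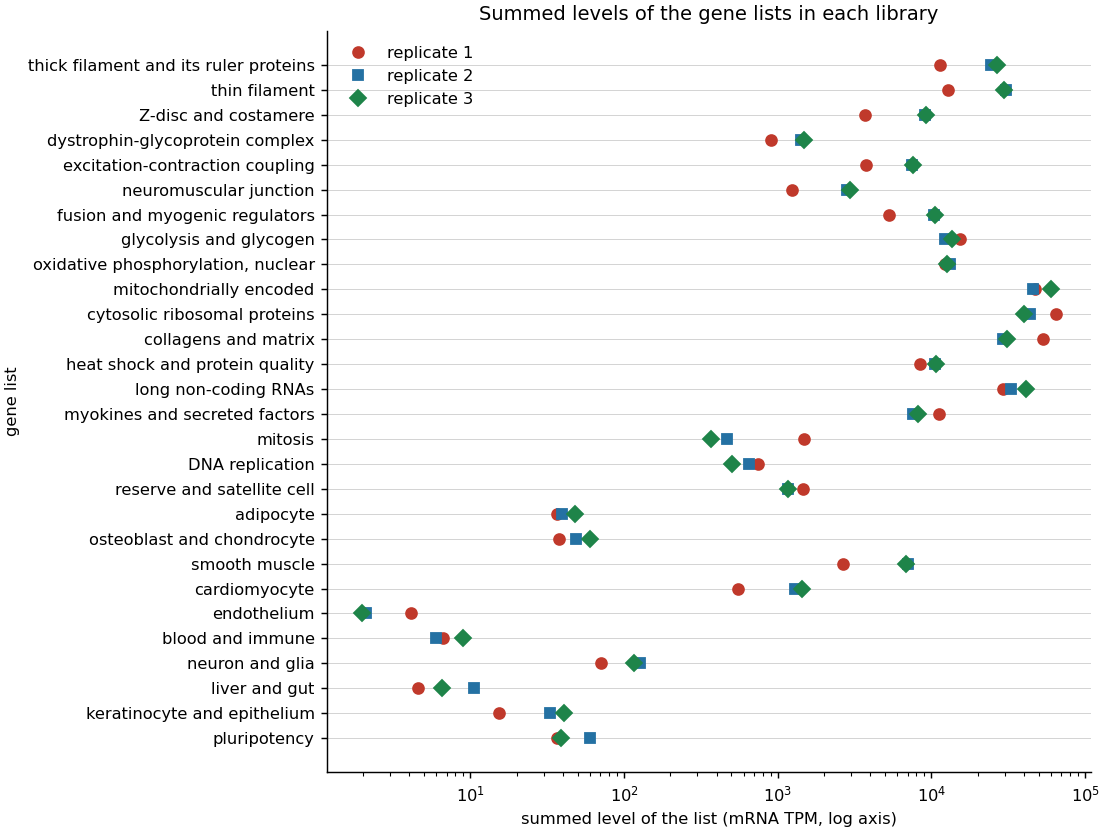
Summed levels of the gene lists in each library, in mRNA TPM on a log axis, with 1 point per replicate. Replicates 2 and 3 nearly coincide in the contractile lists (24536 and 26709 for the thick filament), where replicate 1 is lower, while nuclear oxidative phosphorylation genes lie together in all 3 libraries.

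Cytosolic ribosomal protein genes, which build the translation machinery, summed to 64711, 43646 and 40187 mRNA TPM, and all 54 were highest in replicate 1. Their log2 ratio to the mean of the other replicates (0.1 added) ran from 0.241 to 1.07. The median member lay 1.54-fold above that mean, and 1 of 54 reached 2-fold, against 8.03% of all protein-coding genes. Rplp1, of the ribosomal stalk, led at 6202, 3643 and 3354. Many of these genes have processed pseudogenes, so their levels depend on how shared reads were treated. Eef1a2, the elongation factor form that replaces Eef1a1 in adult muscle, stood at 0, 1.45 and 2.10.

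The collagen and matrix list was abundant, at 53117, 29043 and 30970. Col3a1, fibrillar collagen III, was the member with the largest excess in absolute level in replicate 1, at 11956, 3152 and 3550. Lum (749, 65.1 and 65.5) and Dcn (1393, 268 and 293), small proteoglycans of connective tissue, and Ogn (4014, 1336 and 1953) were also high there. Thbs1 and Fn1 (3450, 2953 and 3660) were even, and Tnc (223, 635 and 565) and Timp2 (490, 914 and 811) went the other way. In all, 11 of 29 members lay at least 2-fold higher and 1 at least 2-fold lower in replicate 1. Over all protein-coding genes these shares were 8.03% and 6.96%.

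Nuclear envelope and cytoskeletal families were led by general isoforms. Lmna, lamin A and C of the nuclear envelope, held 88.1%, 90.9% and 89.6%. Tuba1a led the alpha tubulins at 56.3%, 66.0% and 70.1%. Myh9, the non-muscle myosin, stood at 634, 875 and 839, while Myh11 had 10, 4 and 2 counts.

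Among matrix receptors and their ligands, Itga7 held 55.8%, 73.5% and 70.8% of the integrin alpha chains listed. Lama5 (64.2, 84.4 and 96.7 mRNA TPM) exceeded Lama2 (22.9, 32.3 and 37.1), the laminin chain of adult muscle basement membrane, in each library. Of the AMPK subunits, sensors of cell energy, the muscle-enriched gamma 3 gene Prkag3 stood at 32.6, 105 and 131. Its catalytic partner of muscle, Prkaa2, stayed at 11.7, 11.5 and 12.5 against 115, 127 and 145 for Prkaa1. Ankrd1, a stretch-sensing ankyrin repeat protein, stood at 1001, 1791 and 1820 and held 89.1%, 90.05% and 89.6% of its family.

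Of the secreted factors made by muscle, Fstl1 stood at 1449, 1060 and 1037 and Igfbp5, a binding protein that is made during myogenesis, at 260, 810 and 943. Igf1 stood at 198, 51.0 and 67.6 and Il15 at 127, 18.1 and 19.8, both highest in replicate 1. Fst, follistatin, the antagonist of myostatin, stood at 33.3, 159 and 123. Fgf21 was at 88.5, 125 and 115, and Il6 was low at 1.003, 3.66 and 2.41. Across this list 7 of 29 members were at least 2-fold higher and 8 at least 2-fold lower in replicate 1, so it had no common direction. Both shares lay above those of all protein-coding genes (8.03% and 6.96%).

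Among genes of protein quality control, the cytosolic chaperone Hsp90ab1 was highest by mean and stood at 1734, 2365 and 2341. The muscle-specific chaperone Unc45b, which folds myosin, stood at 38.4, 98.3 and 94.3. The atrophy-linked ubiquitin ligases Fbxo32 and Trim63 stood at 71.5, 95.4 and 92.5 and at 37.1, 70.7 and 75.4. In this list 7 of 23 members lay at least 2-fold lower in replicate 1 and 1 at least 2-fold higher, the reticulum chaperone Hsp90b1. Over all protein-coding genes these shares were 6.96% and 8.03%.

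Transcripts of cell division were detected in each library. All 20 mitosis genes were at 1 mRNA TPM or more in every library and highest in replicate 1, each by at least 2-fold. Top2a stood at 222, 48.8 and 41.3 and Mki67 at 142, 41.9 and 40.4. Mitosis genes were also higher in replicate 2 than in replicate 3 by sum (470 against 368), a smaller gap. DNA replication genes summed to 746, 651 and 506, and 2 of 20 were at least 2-fold higher in replicate 1, near the 8.03% of all protein-coding genes. Ccnd1, the cyclin of proliferating myoblasts, stood at 103.7, 34.0 and 32.5, and Ccnd3, the D cyclin of differentiated muscle, at 85.0, 153 and 160, so their order was opposite in replicate 1.

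Genes of satellite and reserve cells, the undifferentiated cells that remain beside myotubes, went in both directions. Pax7, the satellite cell factor, stood at 1.44, 12.9 and 14.1, lowest in replicate 1, with the Notch targets Heyl (0.806, 15.7 and 17.7) and Hes1 (55.7, 144 and 151). Cd34 was highest in replicate 1 at 411, 59.2 and 73.6, as was Vcam1 at 141, 52.9 and 60.1. Pax3 and Calcr had no count. Of 13 members at 1 mRNA TPM in all libraries, 2 lay at least 2-fold higher and 6 at least 2-fold lower in replicate 1, beside 8.03% and 6.96% of all protein-coding genes.

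Several defining markers of other cell types had no count, while the defining genes Cd68 and Myh6 and some other members of the lists were detected. The defining genes Gfap, Nanog, Sp7 and Col2a1 are not given here. The adipocyte genes Adipoq and Plin1, the leukocyte gene Ptprc, the neuronal gene Rbfox3, the liver gene Alb, the epithelial genes Krt5 and Epcam and the pluripotency gene Pou5f1 had no count in any library. Pecam1 and Cdh5 of endothelium stayed at 0.150 or less. The summed endothelial list lay between 1.97 and 4.12 and the blood list between 5.95 and 9.0, carried by Flt1 and by Cd68. Like Ptprc, Cd68 was a defining gene of the blood list. The neuron and glia list summed to 70.9, 126 and 116, mostly through Tubb3 and Stmn2. The osteoblast and chondrocyte list summed to 37.7, 48.9 and 59.7, with 2 of 12 genes at 10 mRNA TPM or more in all libraries. The adipocyte list summed to 36.9, 39.7 and 47.7, nearly all of it from the transcription factor genes Cebpa and Pparg. The smooth muscle list was high (2643, 7074 and 6842), but through Acta2, Des, Tagln and Smtn, while its defining genes Myh11 and Cnn1 stayed under 1. Likewise the cardiac list (554, 1287 and 1447) was carried by Myl4. Of its defining genes, Nppa was at or near 0, as was the list member Ryr2, while Myh6 stood at 5.13, 5.93 and 7.39. Low levels of factors of other lineages were present, such as Gata4 (8.45, 10.6 and 8.99), Sox9 (17.6, 18.9 and 25.2), Trp63 (7.68, 17.0 and 21.1) and Klf4 (35.7, 59.0 and 37.1).

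Over all 50 gene families examined, 41 had the same leading member in every library. The largest difference of any member's share between libraries had a median of 9.71 percentage points over families, and of 2.91 points between replicates 2 and 3. In 14 families no share differed by more than 5 points. These included sarcomeric light chains, troponin T, myomesins, ryanodine receptors, acetylcholine receptor subunits and muscle ankyrin repeat proteins. Lactate dehydrogenases, aldolases and lamins were also among them. In another 14 a share differed by more than 15 points, among them enolases, phosphoglycerate mutases, glycogen phosphorylases, beta tubulins, caveolins and D cyclins. Tropomyosins, myosin-binding protein C and calsequestrins were in this class as well. Between replicates 2 and 3, 41 families stayed within 5 points.

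**Figure D4:**
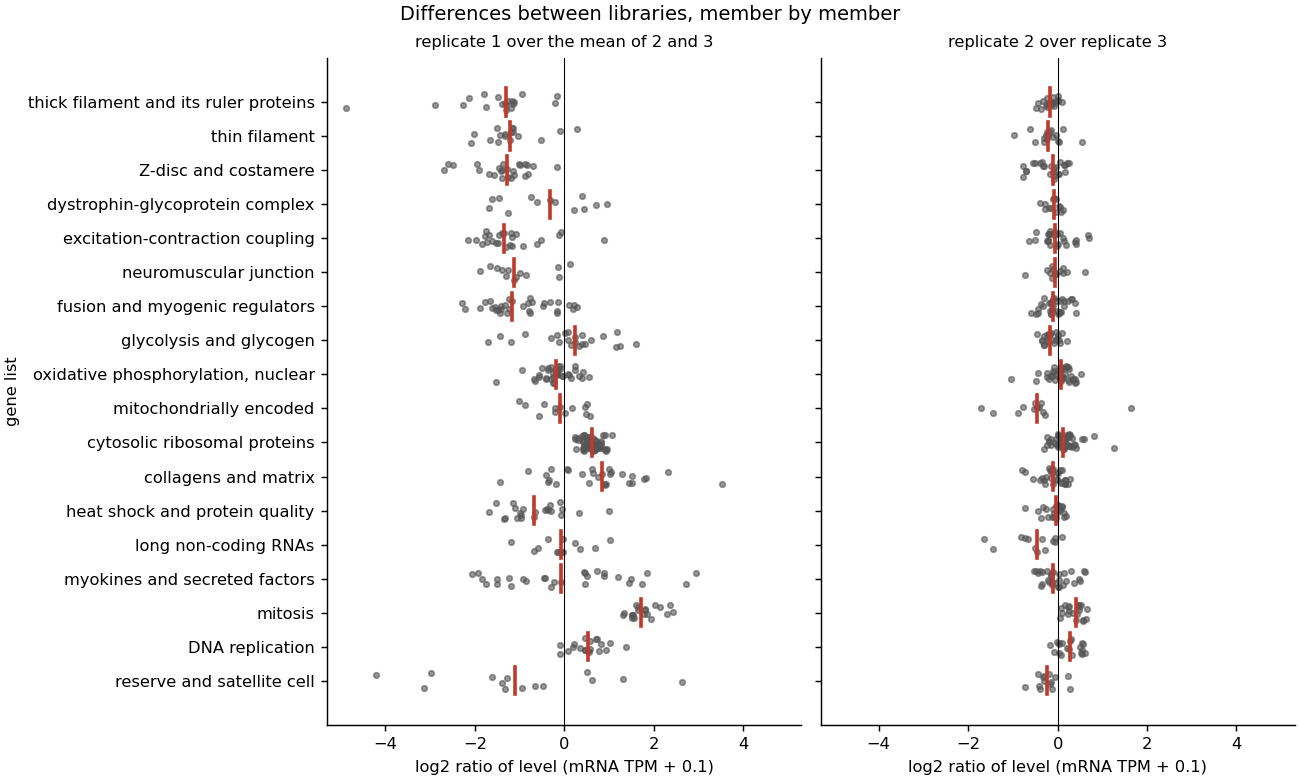
Log2 ratio of level between libraries for each list member at a mean of 1 mRNA TPM or more, with 0.1 added to each value. Left, replicate 1 over the mean of replicates 2 and 3; right, replicate 2 over replicate 3; red bars are list medians. Left medians reach -1.31 for the thick filament and 1.72 for mitosis, while right medians lie between -0.47 and 0.41.

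The leading member changed with the library in 9 families. Cav1, the general caveolin, led in replicate 1 at 77.8% and in replicate 3 at 52.7%, while the muscle form Cav3 led in replicate 2 at 53.7%. For the beta tubulins, Tubb5 led in replicate 1 at 45.4% and Tubb6 in the others at 33.7% and 34.4%. For the adenine nucleotide carriers, the muscle form Slc25a4 led in replicate 1 (53.8%) and Slc25a5 in the others (54.8% and 54.6%). Without replicate 1, the leader by mean share changed in 4 families: troponin I (Tnni1, 50.4%), phosphoglycerate mutases (Pgam2, 56.1%), hexokinases (Hk2, 51.4%) and caveolins (Cav3, 47.5%).

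Spread between libraries was far above counting error at every level. The median coefficient of variation over 3 libraries was 31.3% for genes at 1 to 10 mRNA TPM, where counting alone gives 10.8%. It was 16.7% at 10 to 100 and 16.8% at 100 to 1000, and it was 32.5% over the 110 genes at 1000 or more, where counting error was 0.749%. The most abundant class was thus as variable as the least abundant one. Of the 50 most abundant genes, 31 belong to the lists and families used here. These were chosen with earlier results of these data known, and their share of all protein-coding genes was not computed. No reading is therefore drawn from that count. Between replicates 2 and 3 alone the medians were 14.5%, 7.14%, 6.25% and 6.43%.

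Pairs of libraries showed the same. Pearson's r of log2 levels across the 11675 genes, which are not independent replicates, was 0.920 for replicates 1 and 2, 0.920 for 1 and 3, and 0.989 for 2 and 3. Those pairs had 15.8%, 15.2% and 0.891% of genes at least 2-fold apart. The biological coefficient of variation estimated by edgeR over 14659 genes was 0.319, and it was 0.133 without replicate 1. By this measure, which uses TMM scaling, the spread rested mostly on that library. On the all-gene TPM scale it did not. The median coefficient of variation there was 31.8% with all libraries, 34.2% without replicate 1 and 21.2% without replicate 3.

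**Figure D5:**
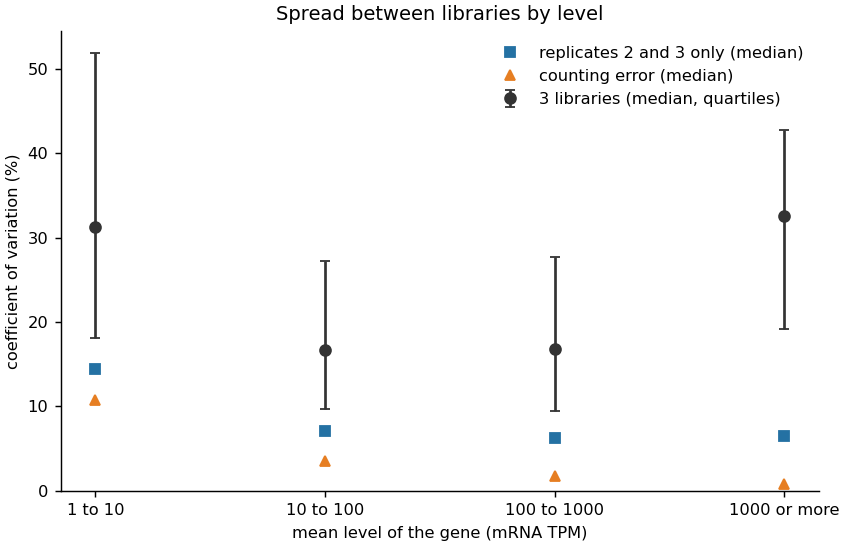
Coefficient of variation of level between libraries for protein-coding genes grouped by mean mRNA TPM: all 3 libraries (median with quartiles), replicates 2 and 3 only, and the counting error. At 1000 mRNA TPM or more the medians are 32.5%, 6.43% and 0.749%.

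Single genes with the widest range came mostly from replicate 1. By the range of log2 level among 7564 genes at a mean of 20 mRNA TPM or more, the complement gene C3 was first (59.2, 0.587 and 0.227), ahead of Lars2. Sectm1a (156, 2.72 and 2.77), the prostaglandin-degrading enzyme Hpgd (226, 6.04 and 8.86), the chemokine Cxcl5 (59.2, 2.81 and 1.57), the water channel Aqp1 (339, 21.3 and 21.4) and the matrix proteoglycan Omd (100, 7.27 and 6.37) were also high in replicate 1. Myl2 was the contractile gene among the first 10 and lay low there. At the other end, Trabd (51.8 in each library), Asxl1 (43.8, 43.8 and 44.0), Mex3c (115, 115 and 116) and Anapc1 (73.8, 74.2 and 74.2) hardly differed between libraries.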

How the data were processed

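Total RNA of C2C12 cells was extracted with TRIzol, DNase-treated and purified on RNeasy columns, and the TruSeq Stranded Total RNA Gold kit, which keeps strand and depletes ribosomal RNA, was used for the libraries, per the labels' protocols. The authors deposited raw counts per gene with 1 length per gene, for 55385 identifiers. Per the submitters' processing notes, the build was mm10 and the software comprised featureCounts 1.5.1, STAR 2.5.1b, DESeq2 1.18.1, Salmon 0.12.0 and bcl2fastq, with no roles stated. Overlapping, antisense and near-identical genes are uncertain, since the sources used here do not give the strand setting of the counting or how reads that match several places were treated.

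From these counts, all-gene TPM and mRNA TPM were computed per library. A gene was taken as nuclear protein-coding by its RefSeq type (GRCm38.p6), matched for 38986 identifiers by symbol and 252 by synonym, with 16147 unmatched. Shares within families are of summed mRNA TPM. The biological coefficient of variation came from edgeR 4.0.16 under R 4.3.3, with TMM scaling, filterByExpr and 1 group, and DESeq2 1.42.0 gave alternative size factors. No groups were compared and no test was run. Levels and spread were checked on simulated data, and family shares were not. Promoters came from RefSeq.

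Members and lists were chosen with earlier results of these data known. Named genes were the 25 highest by mean all-gene TPM, with small RNA and mitochondrially encoded genes apart, family members, and the leading members of each list. The 10 widest and 5 narrowest log2 ranges (0.1 added) at a mean of 20 or more were taken on the mRNA TPM scale, and 6 of the 10 are shared with the all-gene scale. The 50 highest protein-coding genes, and other list members named, were added after their values were seen. Some items are not reported here.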

Additional observations from a re-analysis of the deposited data

How the results depend on the processing

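On the all-gene scale, 13423 genes reached 1 TPM in all 3 libraries. The count stayed within 1.5 times of this at 0.5 TPM (15191), at 2 TPM (11650), with at least 10 counts as well (12703), with length less 200 bases (13624) and without any 1 replicate (13659 to 14227). Shares of the sum depended on the genes in it. The mean share of the 10 and the 100 most abundant genes was 42.6% and 56.0% of all-gene TPM, 17.2% and 31.7% of counts not divided by length, and 7.09% and 22.5% of mRNA TPM. The thick filament list held 1.001%, 2.02% of counts and 2.09% of mRNA TPM. The thin filament list held 1.1796%, or 2.43% of mRNA TPM, and the ribosomal protein list 2.54%, or 4.95% of mRNA TPM. The mitochondrially encoded list held 2.48%, 1.36% of counts, and 3.26% without genes under 300 bases. The median coefficient of variation was 31.8% on the all-gene scale, 19.7% with edgeR's TMM scaling, 19.7% with DESeq2 size factors and 18.3% in mRNA TPM. On the all-gene scale with 1 replicate left out, it ranged from 21.2% (without replicate 3) to 34.2% (without replicate 1). The biological coefficient of variation was 0.319 and ranged from 0.133 (without replicate 1) to 0.369. Of 50 families, the leading member by mean share was another one in 11 families when counts were not divided by length, in 0 with length less 200 bases, and in 4, 2 and 2 without replicates 1, 2 and 3. The 11 included actins, tropomyosins, troponin I, troponin T, enolases, glycogen phosphorylases, beta tubulins and adenine nucleotide carriers. The share of the leading member moved by more than its SD in 30 families with undivided counts, and in 3 with length less 200 bases. No paired analysis was possible because no groups are compared. The total of 18335785 counts in replicate 3 limits genes of a few counts, and counting errors cover counting alone.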
